A study of Homo sapiens with 6 samples.

Results

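The mitochondrial ribosome is built from 2 rRNAs made inside the organelle and from proteins whose genes lie in the nucleus and carry the symbols MRPS (small subunit) and MRPL (large subunit). It translates only the proteins that mitochondrial DNA encodes, which are core subunits of the respiratory chain and of the ATP synthase. Its proteins are made by cytosolic ribosomes and imported, so that their mRNAs are ordinary nuclear transcripts, and they fall into homologs of bacterial ribosomal proteins and proteins particular to mitochondria. The genes described here are the rows whose symbol consists of MRPL or MRPS, a number and at most 1 letter: 78 of 19940 gene rows (19907 distinct symbols). Of these, 26 are small subunit proteins and 51 are large subunit proteins, among them MRPS18A and MRPS30, which sit in the large subunit despite their names. MRPS36 is placed in neither subunit, since its product is known as a part of the 2-oxoglutarate dehydrogenase complex. Mitoribosome proteins that carry other symbols, such as DAP3, are outside the rule and were read separately.

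Total RNA depleted of rRNA was sequenced from U2OS cells, a human osteosarcoma line, that stably overexpress GFP-DCP1a, a tagged decapping factor. All 3 groups carry this transgene, and each holds 2 libraries, numbered 1 and 2. Isotonic cells were kept in medium with 150 mM sodium, hypertonic cells spent 4 h at 300 mM sodium, and rescue cells spent 4 h at 300 mM and then 4 h back in isotonic medium. The labels do not tie the 2 libraries of a group to separate cultures, so these pairs may be technical duplicates. A p-value here rests on the spread within labels. Over the members the log2 ratio of the 2 libraries had an SD of 0.43 for isotonic, 0.42 for hypertonic and 0.09 for rescue. Rescue cells were also collected 4 h later than the hypertonic cells with no isotonic control of that time, so that the return to isotonic medium and the elapsed time cannot be told apart.

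The libraries held between 90196278 and 105991428 counts, and 3 counts correspond to 0.0283 to 0.0333 CPM (counts scaled to a fixed library total). All 78 members were above this in every library and all passed the filter on low counts, which left 18208 genes. The DCP1A row, which can hold reads of the transgene, stood at 927, 786, 764 and 916 CPM in isotonic 1, isotonic 2, hypertonic 1 and hypertonic 2 and at 527 and 505 CPM in rescue 1 and rescue 2. Of 10 osteoblast and mesenchymal markers 6 averaged at least 1 CPM, with SP7, COL1A2, BGLAP and IBSP below it, and 4 of 7 epithelial markers did, with CDH1 below it. Summed mesenchymal markers ranged from 3290 to 3549 CPM and summed epithelial markers from 350 to 554 CPM. Single markers differed more. RUNX2 stood at 77.7 and 76.1 CPM in isotonic 1 and hypertonic 2 and at 17.6 and 17.2 in isotonic 2 and hypertonic 1. TWIST1 had the reverse order, at 1.01 and 1.08 against 4.40 and 4.35 CPM. EPCAM stood at 12.6 and 11.7 CPM in rescue, against 3.16 to 4.48 CPM elsewhere. KRT8 and KRT18 in rescue lay within the range of the other libraries. Leukocyte markers summed to 3.07 to 8.35 CPM in the isotonic and hypertonic libraries and to 12.3 and 11.1 CPM in rescue 1 and rescue 2. PTPRC and ITGAM were higher in both rescue libraries than in any other, whereas CD14 was not. Of 5 endothelial markers 4 averaged at least 1 CPM, with KDR below it, and their sum was 9.01 to 30.4 CPM in the isotonic and hypertonic libraries and higher in both rescue libraries, with 43.4 CPM in rescue 2. Among them TEK ranged from 1.08 to 1.76 CPM outside rescue and stood at 12.7 CPM in rescue 1. VWF, CDH5 and KDR were also higher in both rescue libraries than in any other. PECAM1 stood at 3.59 and 3.48 CPM in isotonic 1 and hypertonic 2 and at 24.7 and 23.9 in isotonic 2 and hypertonic 1. In rescue PECAM1 lay between these, at 14.3 and 12.8 CPM. The part of these marker genes in the results below was not tested. Across the members, the library labelled isotonic 1 lay next to hypertonic 2 and the library labelled isotonic 2 next to hypertonic 1. The log2 ratio of hypertonic 2 to isotonic 1 had an SD of 0.06 over the 78 genes, and that of hypertonic 1 to isotonic 2 likewise 0.06. The 2 libraries labelled isotonic differed with an SD of 0.43 and the 2 labelled hypertonic with an SD of 0.42 (0.33 in both without MRPS6). Whether the labels of 2 of these libraries were exchanged was not tested. The labels were kept as given, each value below is named by the label of its library, and comparisons of hypertonic with isotonic hold only for the labels as they stand. Values of CPM refer to the library total unless TMM scaling, which sets the bulk of genes level between libraries, is named.

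Many members share a sequence at their start of transcription. A promoter window of 300 bases, from 250 before to 50 after the gene's start (RefSeq, GRCh38.p14), was found for 69 of the 78 members and for 14896 genes of the count tables. The letters AAGATGGC, the core of the motif of the zinc finger protein YY1, stood on either strand in 20 of 69 members' windows (29.0%) and in 3.99% of all windows. In 15 of 69 members (21.7%) and 2.55% of all genes they lay in the transcribed bases after the start. In 12 of those 15 members the ATG inside the 8 letters was the annotated start codon, so that the same bases are the motif and the beginning of the reading frame. The following stretches of members described below show this, with AAGATGGC in capitals.
MRPS10, chr6:42217834-42217863, minus strand: tcgggaccggcAAGATGGCggcgcggacag
MRPS27, chr5:72320206-72320235, minus strand: tggtacgctccAAGATGGCtgcctccatag
MRPS18B, chr6:30617852-30617881, plus strand: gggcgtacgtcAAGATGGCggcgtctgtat
MRPS24, chr7:43869480-43869509, minus strand: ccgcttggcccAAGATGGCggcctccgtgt
MRPS7, chr17:75261887-75261916, plus strand: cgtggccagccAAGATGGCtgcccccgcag
MRPL45, chr17:38297170-38297199, plus strand: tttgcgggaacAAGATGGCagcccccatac
MRPL38, chr17:75904860-75904889, minus strand: aggccggagggAAGATGGCggcgccctggt
MRPL51, chr12:6493223-6493252, minus strand: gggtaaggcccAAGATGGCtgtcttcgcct
MRPS18A, chr6:43687764-43687793, minus strand: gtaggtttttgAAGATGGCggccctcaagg
MRPL46, chr15:88467362-88467391, minus strand: tgggagaacgaAAGATGGCggcgcccgtaa
In MRPL51 the ATG is not the annotated start codon, whereas in the other 9 it is. MRPS10, MRPS27, MRPS18B, MRPS24, MRPS7, MRPL45, MRPL38 and MRPL51 lay lower in both rescue libraries than in any other, while MRPS18A and MRPL46 did not. The shown sequences thus come mostly from members that were lowest in rescue.

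The ETS core CCGGAAGT, read by factors such as GABPA, stood in 11 of 69 members' windows (15.9%) against 6.36% of all windows. The palindromic NRF1 motif was in 8 members (11.6%) and 8.62% of all windows, and the E-box CACGTG, the core read by MYC, in 6 (8.70%) and 8.94%. The motifs were searched on both strands, none contains another, and a match describes the letters only. MRPL3, one of the members that fell most, holds an ETS core in the stretch just before its start, printed here with the core in capitals.
MRPL3, chr3:131502984-131503221, minus strand: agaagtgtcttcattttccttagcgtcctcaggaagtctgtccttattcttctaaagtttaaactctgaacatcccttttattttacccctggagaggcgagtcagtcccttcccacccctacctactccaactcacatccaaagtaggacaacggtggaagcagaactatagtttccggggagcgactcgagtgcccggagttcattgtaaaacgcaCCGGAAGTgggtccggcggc
No NRF1 match and no further ETS match of these exact letters lay in this stretch. Of the 8 members with the largest called falls, MRPL47 also held an ETS core in its window. MRPL12, MRPS10, MRPS35, MRPL9, MRPL28 and MRPL14 held none. A link between this core and the fall was not tested.

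Together the 78 members made up 0.269% to 0.330% of all counts. Their summed level was 3289, 3036, 2985 and 3304 CPM in isotonic 1, isotonic 2, hypertonic 1 and hypertonic 2, and 2685 and 2687 CPM in rescue 1 and rescue 2. Both rescue libraries thus lay below the other 4, and their mean was 85.2% of that of the other 4 libraries (69.3% with TMM scaling). A single row, MRPS6, carries much of this sum and is treated below because its span overlaps a neighbour and may hold that gene's reads. Without it the sums were 3088, 2262, 2232 and 3095 CPM in the isotonic and hypertonic libraries, in the same order, and 2340 and 2327 CPM in rescue. On this scale the rescue libraries lay between the others, above isotonic 2 and hypertonic 1, whereas with TMM scaling they were the lowest, at 2049 and 2018 against 2522 to 3158. The large subunit sum showed the same split, with 1872 and 1880 CPM in isotonic 1 and hypertonic 2, 1381 and 1358 in isotonic 2 and hypertonic 1, and 1406 and 1396 in rescue.

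**Figure D1:**
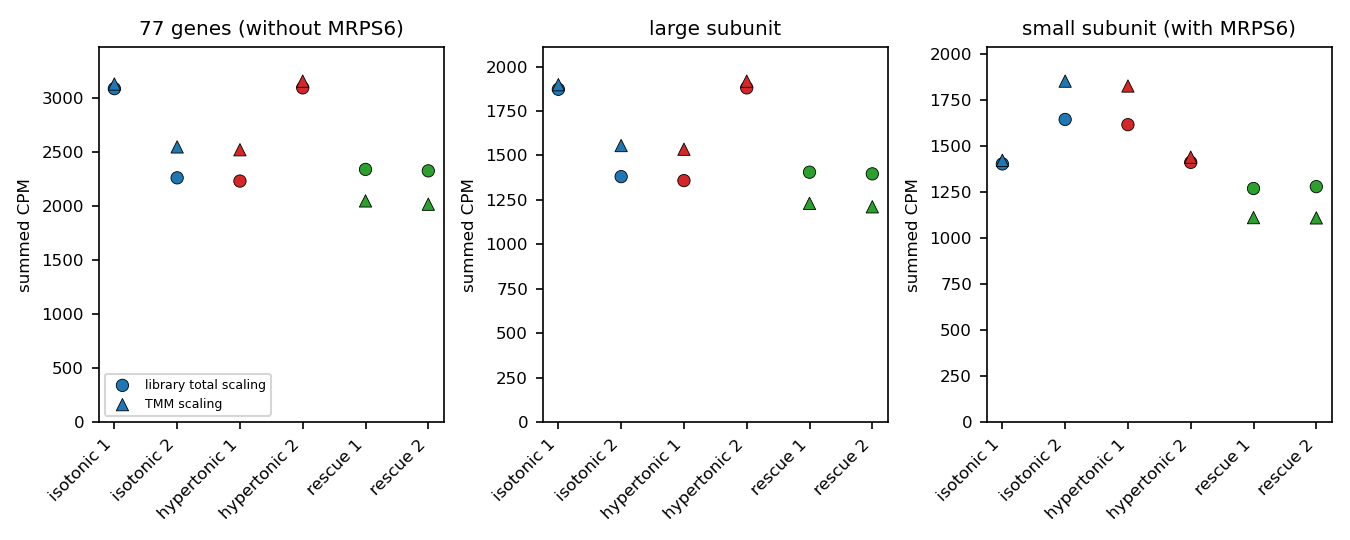
Summed CPM of the members in each of the 6 libraries (x axis, by label) for the 77 genes without MRPS6, the large subunit and the small subunit with MRPS6; circles are scaled by library total and triangles by TMM, and colours mark the group. Rescue libraries sit lowest in each panel with TMM scaling, while by library total they sit at the level of isotonic 2 and hypertonic 1 in the first 2 panels.

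CPM does not correct for gene length, so levels were compared between members per kilobase of exon (GENCODE 29). The median member stood at 10.6 CPM per exon kilobase. MRPS6 had the highest value at 102, followed by MRPL33 at 57.4, MRPL51 at 44.0 and MRPL14 at 43.2. The lowest values were those of MRPL42 at 1.84, MRPS33 at 2.14 and MRPL46 at 2.84. Whether rows count exons or whole gene spans is not given in the sources used here, and per kilobase of span the order differs. MRPL51 was then highest at 34.9, followed by MRPS34 at 22.7 and MRPS16 at 19.6, while MRPS6 stood at 6.31 and MRPL33 at 0.41. MRPL51 was thus high and MRPL33 either high or low, depending on the length used. RBKS covers 50.7% of the span of MRPL33 on the opposite strand and BABAM2 45.4% on the same strand. These rows averaged 18.7 and 119 CPM, beside 88.3 CPM for MRPL33. Reads they may share with the MRPL33 row cannot be told apart, so its level is uncertain. By uncorrected CPM, which does not order genes, the most counted members after MRPS6 were MRPS25, MRPL33, MRPL19, MRPL3 and MRPS16, and the least counted MRPL54 and MRPL55. MRPL54 ranged from 4.49 to 6.19 CPM and MRPL55 from 3.68 to 6.77 CPM over the 6 libraries, so that all members were well above the counting limit.

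The first comparison asks what 4 h at 300 mM sodium did to these genes. By the labels, no member passed the test: 0 of 78 were called lower and 0 higher (edgeR quasi-likelihood test, Benjamini-Hochberg over 18208 genes, adjusted p under 0.05), against 0.0% of all genes in each direction. No member reached an unadjusted p under 0.05, and DESeq2 and limma voom called none either. Fitted log2 changes ran from -0.09 to 0.15 with a median of 0.00. These small values are averages of opposite ones, and SLC5A3, a known osmotic target, was itself at 717 CPM in isotonic 2 and 177 CPM in hypertonic 2. MRPL46, a protein particular to mitochondria, stood at 23.9 CPM in isotonic 1 and 8.48 in isotonic 2, and at 8.37 in hypertonic 1 and 22.5 in hypertonic 2. Its 2 labelled groups overlapped fully, and its fitted log2 change was -0.06 with an SE of 0.62.

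Read within a number, the members shifted in opposite directions. In number 1 the median log2 ratio of hypertonic to isotonic CPM was -0.47 for the members and -0.15 for all genes, and 75 of 78 members were below 0 (59.2% of all genes) and 3 above (40.4%). In number 2 the medians were 0.45 and 0.14, and 75 of 78 were above 0 (58.6% of all genes) and 3 below (41.0%). Each ratio sets 1 library against 1 library and has no replicate check, and library totals alone move the median of all genes. Fitted with isotonic 2 and hypertonic 2 left out, so that only the rescue libraries set the spread, 43 members were lower in hypertonic (32.6% of all genes) and 2 higher (31.6%). With isotonic 1 and hypertonic 1 left out instead, 47 were higher (32.9%) and 2 lower (31.0%). Isotonic 1 and hypertonic 2 were both above isotonic 2 and hypertonic 1 in 74 of 78 members, against 53.1% of all genes, and both below in MRPS6 and MRPS24. MRPL28 and MRPL48 showed neither order. The shift was seen in members with short and with long spans: the median number 1 ratio was -0.40 in the 39 members up to 11.9 kb and -0.51 in the 39 longer ones, beside -0.11 and -0.16 for all genes of those lengths. The plot of all members by library shows 2 pairs of alike columns that cross the labels.

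**Figure D2:**
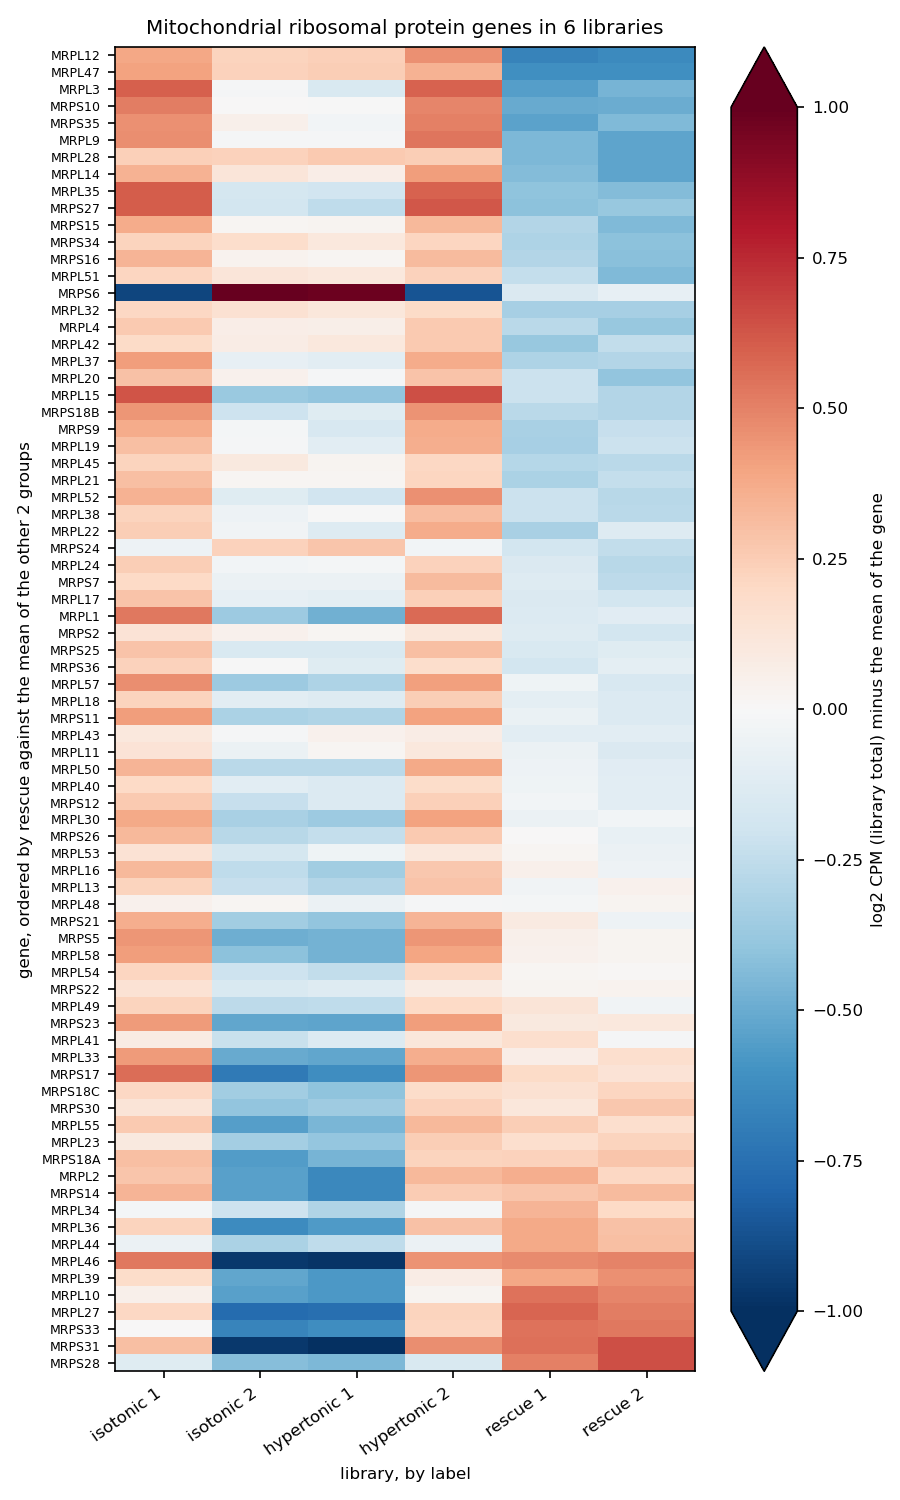
Log2 CPM by library total of each of the 78 members (rows, ordered by the log2 change of rescue against the mean of the other 2 groups) minus the mean of that gene over the 6 libraries (columns, by label); red is above and blue below that mean, and colours saturate at 1. Isotonic 1 and hypertonic 2 look alike, as do isotonic 2 and hypertonic 1, MRPS6 and MRPS24 run opposite to most rows, and the rescue columns are blue at the top and red at the bottom.

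At least 2-fold lower in hypertonic 1 than in isotonic 1 were 5 members, MRPL46, MRPS31, MRPS17, MRPL15 and MRPL1 (12.6% of all genes were), and 1 member, MRPS6, was at least 2-fold higher (10.0% of all genes). In number 2 the same fold put MRPL15, MRPS17, MRPL46 and MRPS31 higher (12%) and MRPS6 lower (10.4%). MRPS31 stood at 17.0 CPM in isotonic 1 against 6.90 in hypertonic 1, and at 7.06 in isotonic 2 against 19.0 in hypertonic 2. MRPS17, a homolog of a bacterial rRNA-binding protein, stood at 31.5 against 14.0 in number 1 and at 13.1 against 29.2 in number 2. Both showed a high and a low library under each label. The whole span of MRPS17 lies within NIPSNAP2 on the same strand, a row whose number 1 ratio was -0.74, so its reads are uncertain. MRPL15 likewise stood at 47.2 against 23.2 CPM and at 23.7 against 47.7 CPM. At the other end, MRPL28 hardly moved in either number, with 32.5, 32.3, 33.0 and 32.6 CPM in isotonic 1, isotonic 2, hypertonic 1 and hypertonic 2. MRPS24 ran the other way, with 57.6 and 58.6 CPM in isotonic 1 and hypertonic 2 and 70.1 and 72.4 in isotonic 2 and hypertonic 1, but its whole span lies within URGCP-MRPS24, a row with a number 1 ratio of 0.15. MRPL43 had log2 ratios of only -0.06 and 0.09.

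MRPS6, the homolog of a small subunit protein at the platform of the bacterial ribosome, overlaps SLC5A3, which encodes the sodium and myo-inositol cotransporter and is a known target of osmotic stress. In GENCODE 29 (GRCh38) MRPS6 spans chr21:34073224-34143034 and SLC5A3 chr21:34073570-34106262, both on the plus strand. The MRPS6 row held 200.9, 774, 753 and 209 CPM in isotonic 1, isotonic 2, hypertonic 1 and hypertonic 2, and 345 and 359.9 CPM in rescue 1 and rescue 2. The SLC5A3 row held 168, 717, 698 and 177 CPM, and 308 and 320.5 CPM, in the same order. SLC5A3 counts thus equalled 83.4% to 92.7% of the MRPS6 counts, although only 273 exon bases are annotated to both genes and 97.6% of the exon bases of SLC5A3 lie outside the exons of MRPS6. Removing the SLC5A3 count from the MRPS6 row left 33.3, 57.7, 54.8 and 32.3 CPM in the isotonic and hypertonic libraries and 36.6 and 39.4 CPM in rescue. This remainder was again highest in isotonic 2 and hypertonic 1, but the subtraction lowered the number 1 log2 ratio from 1.90 to 0.72 and raised the number 2 ratio from -1.89 to -0.84. How reads over shared bases were assigned is not given in the sources used here, so the remainder is a description of the 2 rows and not a level of MRPS6 mRNA.

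**Figure D3:**
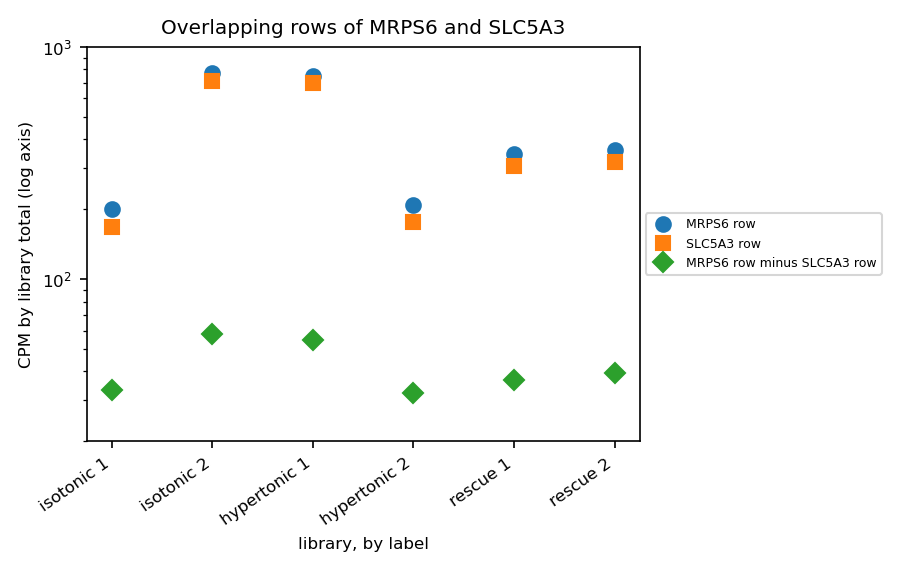
CPM by library total (log axis) of the MRPS6 row, the SLC5A3 row and their difference in each of the 6 libraries (x axis, by label). Both rows are highest in isotonic 2 and hypertonic 1, at 774 and 753 CPM for MRPS6, and their difference stays between 32.3 and 57.7 CPM.

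The next comparisons ask what differed after the return to isotonic medium. Against the mean of the isotonic and hypertonic groups, which uses all 4 of those libraries with each group's level averaged on the log scale, 29 of 78 members were lower in rescue and 1 was higher (edgeR quasi-likelihood test, two-sided, adjusted p under 0.05). Of all genes tested 17.0% were lower and 14.6% higher. The median log2 change of the members was -0.48 against -0.02 for all genes, and 65 of 78 were below 0 (50.8% of all genes). Leaving out rescue 1 or rescue 2 left 0 members called, leaving out isotonic 1 or hypertonic 2 left 18 lower, and leaving out isotonic 2 or hypertonic 1 left 22 and 23. How many were called also followed the scaling: by library totals alone 7 members were lower (8.52% of all genes) and by upper quartile scaling 16 (11.0%), while DESeq2 called 41 lower (22.7%). With isotonic 2 and hypertonic 2 left out, 60 were lower (39.2%) and 10 higher (43.5%), and with isotonic 1 and hypertonic 1 left out, 59 were lower (39.2%) and 9 higher (43.5%).

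Scaling moved all genes alike. The median of all genes was 0.00 with DESeq2's size factors in edgeR, 0.19 with upper quartile scaling and 0.28 by library totals, and the share of higher among all calls rose from 46.2% with TMM to 62.3% and 68.5%. The members' median lay 0.46, 0.46, 0.46 and 0.47 below that of all genes under TMM, DESeq2's factors, upper quartile and totals. MRPL12, MRPL47, MRPL28, MRPL14, MRPS34, MRPL51 and MRPL32 were called lower under every one of these 4 scalings. Sequencing gives shares of RNA, so less mRNA per cell and a larger total of other RNA cannot be told apart here.

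**Figure D4:**
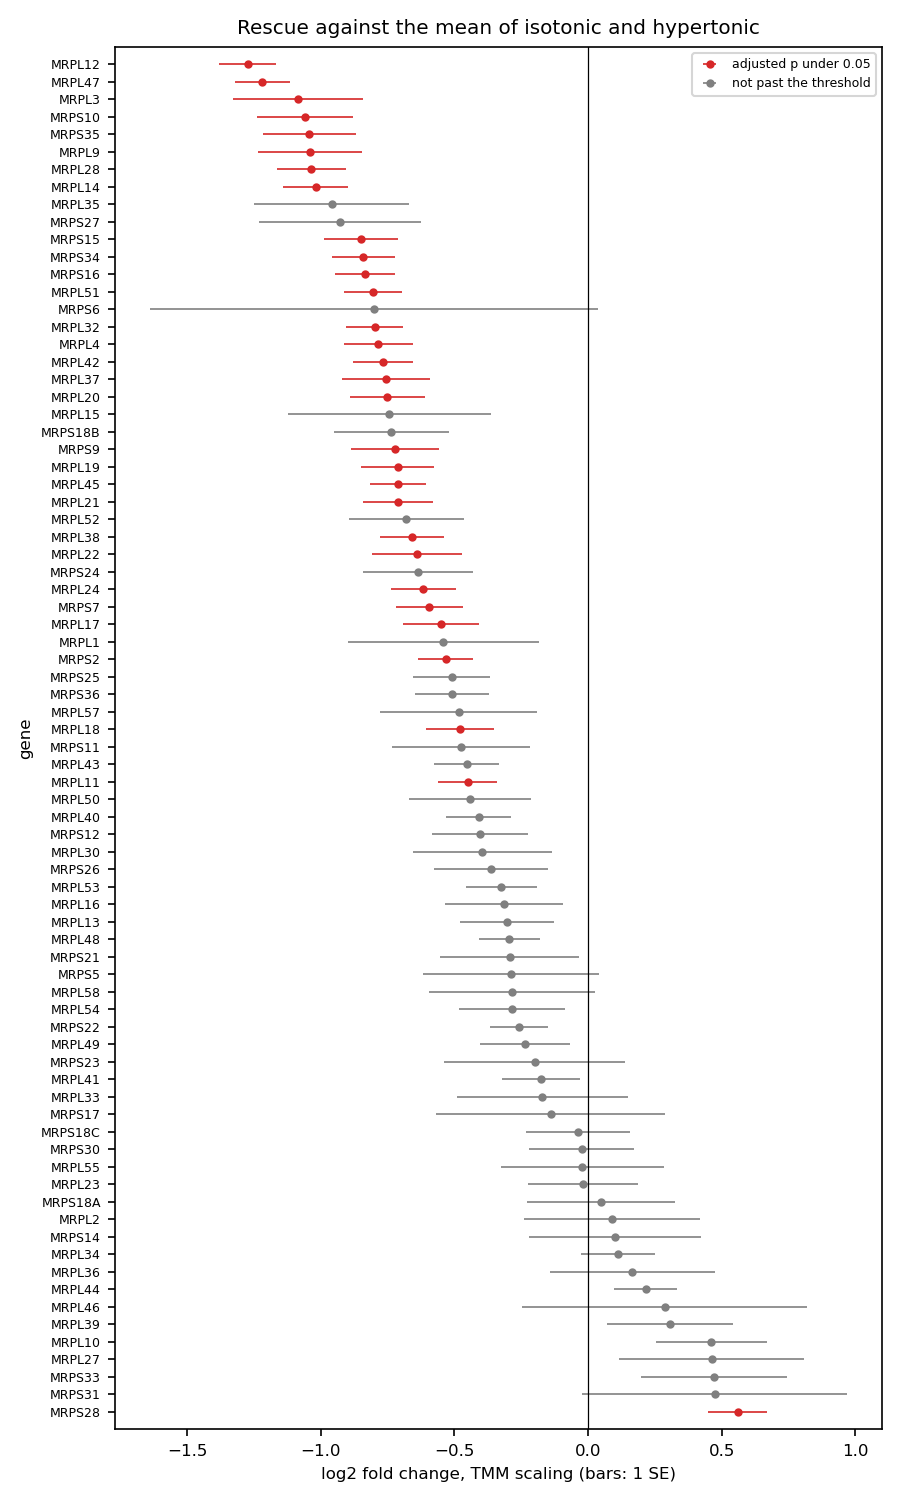
Log2 fold change of each member in rescue against the mean of the isotonic and hypertonic groups (x axis, TMM scaling; bars are 1 SE from the fit); red points have an adjusted p under 0.05. The values run from -1.27 for MRPL12 to 0.56 for MRPS28, and 65 of 78 lie left of 0.

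In the large subunit 21 of 51 members (41.2%) were lower and 0 higher, beside 17.0% and 14.6% of all genes. Their median log2 change was -0.45. MRPL12 had the largest fall. It belongs to the flexible stalk that receives translation factors, and its row stood at 40.3, 36.0, 36.4 and 42.5 CPM in isotonic 1, isotonic 2, hypertonic 1 and hypertonic 2 and at 19.5 and 19.9 CPM in rescue. Both rescue libraries lay far below the other 4, a 2.42-fold difference (log2 change -1.27, SE 0.11, adjusted p = 0.00489, edgeR). MRPL47, at the exit of the peptide tunnel, stood at 47.1, 41.7, 42.3 and 45.2 CPM and at 23.2 and 23.3 CPM in rescue, without overlap (-1.22, SE 0.10, edgeR adjusted p = 0.00485). MRPL3, a homolog of a bacterial protein near the catalytic centre, stood at 122, 79.6, 72.2 and 120.7 CPM and at 54.8 and 58.4 CPM in rescue. Its rescue libraries were the lowest, but isotonic 1 and hypertonic 2 were well above isotonic 2 and hypertonic 1, and its adjusted p was 0.033 (edgeR; log2 change -1.08, SE 0.24).

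MRPL28 had nearly equal levels in the 4 isotonic and hypertonic libraries, between 32.3 and 33.0 CPM, and 20.1 and 19.1 CPM in rescue. By library total, the fall was thus seen in a member that did not follow the split among the other libraries. Its log2 change, fitted with TMM scaling, was -1.03 (SE 0.13, edgeR adjusted p = 0.00821). With TMM scaling MRPL28 stood at 32.9 and 33.3 in isotonic 1 and hypertonic 2. It was then higher in isotonic 2 and hypertonic 1, at 36.3 and 37.3, and stood at 17.6 and 16.5 in rescue. MRPL14, which lies at the interface of the subunits, stood at 51.2, 43.6, 42.2 and 53.8 CPM and at 29.7 and 27.9 CPM in rescue, and MRPL9 at 28.3, 20.4, 20.4 and 29.8 CPM and at 15.0 and 14.3 CPM. Neither overlapped, with log2 changes of -1.02 and -1.04. The other 15 lower large subunit members had log2 changes from -0.80 (MRPL51 and MRPL32) to -0.45 (MRPL11). Of these, MRPL22 and MRPL18 passed the test although their rescue libraries overlapped the others by library total. MRPL22 stood at 24.1, 19.9, 18.6 and 26.4 CPM against 16.3 and 18.6 in rescue, so that rescue 2 was level with hypertonic 1.

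**Figure D5:**
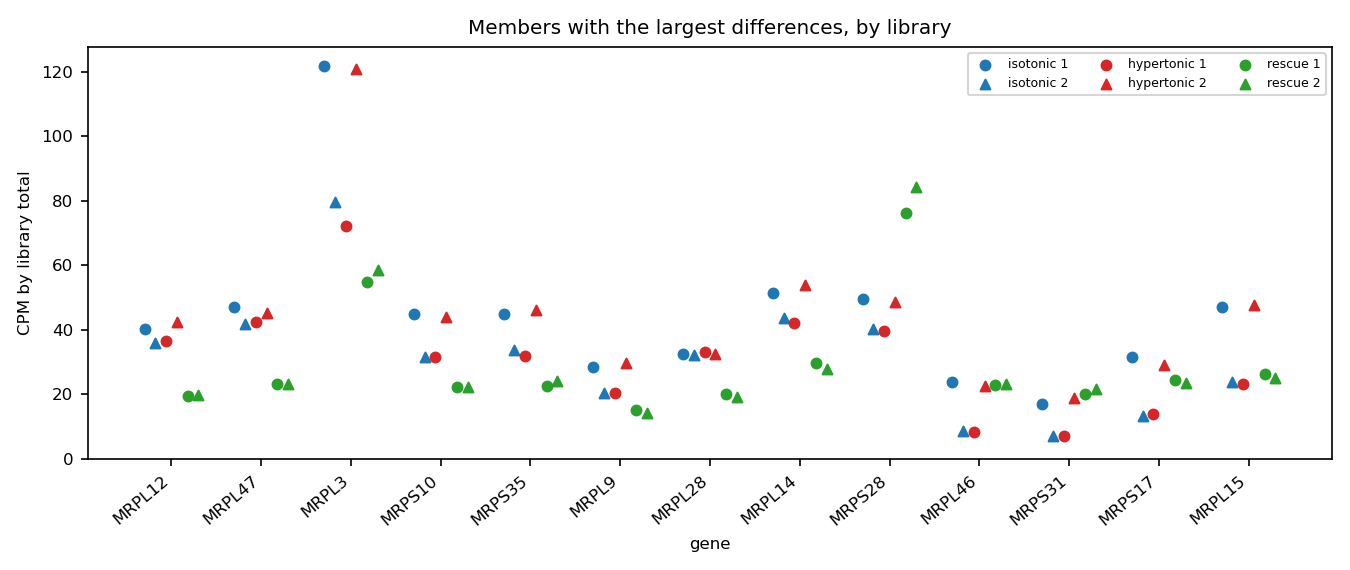
CPM by library total (y axis) of the 8 members with the largest called falls in rescue, of MRPS28, the only called rise, and of the 4 members with the lowest number 1 ratios; each point is 1 library, colours mark the group and shapes the number. Rescue points are lowest in the first 8 genes and highest in MRPS28, and the last 4 genes show a high and a low point under both the isotonic and the hypertonic label.

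In the small subunit 8 of 26 members (30.8%) were lower and 1 higher (3.85%), beside 17.0% and 14.6% of all genes. Their median log2 change was -0.49. MRPS10, in the head of the subunit, stood at 44.9, 31.5, 31.4 and 44.1 CPM and at 22.2 and 22.3 CPM in rescue. MRPS35, particular to mitochondria, stood at 44.9, 33.8, 32.0 and 46.2 CPM and at 22.5 and 24.0 CPM. In both genes the rescue libraries were below all others, nearest to isotonic 2 and hypertonic 1, with log2 changes of -1.06 (SE 0.18) and -1.04 (SE 0.17). The others that were lower were MRPS15, MRPS34, MRPS16, MRPS9, MRPS7 and MRPS2, from -0.85 to -0.53. MRPS16, one of the most counted members, stood at 93.9, 76.1, 75.3 and 92.5 CPM and at 60.4 and 55.6 CPM in rescue, again without overlap. MRPS27, an RNA-binding protein of the pentatricopeptide repeat family, had a large change of -0.93 that missed the threshold (edgeR adjusted p = 0.0816). Its values were 69.6, 40.3, 38.4 and 70.2 CPM against 34.5 and 35.2 CPM in rescue, so that the groups did not overlap but the other 4 libraries were split.

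MRPS28 was the only member called higher. It stood at 49.6, 40.1, 39.5 and 48.6 CPM and at 76.3 and 84.2 CPM in rescue, above every other library, a 1.47-fold difference (log2 change 0.56, SE 0.11, edgeR adjusted p = 0.0227). Its span overlaps a read-through row, AC036214.3, which had a log2 change of -0.02, and reads of the 2 rows cannot be told apart. Without isotonic 2, hypertonic 1 or either rescue library MRPS28 was not called. By position alone, both rescue libraries were below the other 4 in 33 members (21.8% of all genes), above them in 9 (46.9% of all genes) and overlapping in 36. With TMM scaling 51 were below (33.6%), 5 above (34.7%) and 22 overlapping. The 5 that were above under both scalings were MRPS28, MRPL44, MRPS33, MRPL10 and MRPL27. MRPL44, a large subunit protein with an RNase III fold, stood at 20.7, 17.3, 18.0 and 20.6 CPM and at 28.0 and 26.5 CPM in rescue. MRPL27 stood at 23.9, 12.2, 12.3 and 24.1 CPM and at 30.9 and 29.5 CPM, and MRPS33 at 10.7, 6.73, 6.94 and 12.4 CPM and at 15.5 and 15.4 CPM. Although their rescue libraries were the highest, none of these 3 was called, with edgeR adjusted p = 0.23 for MRPL44, 0.364 for MRPL27 and 0.255 for MRPS33.

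Parts of 1 structural unit can be set side by side. MRPL10 and MRPL11 form the base on which the MRPL12 stalk stands. MRPL12 and MRPL11 were lower, with log2 changes of -1.27 and -0.45, whereas MRPL10 stood at 24.2, 16.0, 15.7 and 23.7 CPM and at 33.9 and 32.7 CPM in rescue. MRPL10 was above all other libraries but was not called (log2 change 0.46, SE 0.21, edgeR adjusted p = 0.163). The difference between these stalk genes was not tested. Of the 3 paralogs of the bacterial protein S18, MRPS18A stood at 27.6 and 28.5 CPM in rescue, MRPS18B at 42.9 and 42.1, and MRPS18C at 48.1 and 50.1. Per exon kilobase the order is another, with means over the 6 libraries of 18.9 for MRPS18A, 28.0 for MRPS18B and 9.02 for MRPS18C. Their log2 changes in rescue were 0.05, -0.74 and -0.04, and none was called. MRPS18B overlaps PPP1R10 and MRPS18C overlaps ABRAXAS1, rows with log2 changes of -2.16 and 0.29. MRPS12, of the decoding centre, and MRPL58, a peptidyl-tRNA hydrolase built into the large subunit, had changes of -0.40 and -0.29 and were not called. MRPS36, placed in neither subunit, stood at 15.2, 12.9, 11.9 and 14.6 CPM and at 11.4 and 12.1 CPM in rescue, and just missed the threshold (log2 change -0.51, edgeR adjusted p = 0.0506).

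Of the 46 members with a bacterial homolog 22 (47.8%) were lower and 1 higher (2.17%), with a median of -0.55. The shares of all genes were 17.0% and 14.6%. Of the 31 members particular to mitochondria 7 (22.6%) were lower and 0 higher, with a median of -0.36. The class particular to mitochondria here includes MRPS18A and MRPS18B, although they are paralogs of the bacterial protein S18. The difference between the 2 classes was not tested. Of 40 members whose span overlaps no other protein-coding gene 15 (37.5%) were lower and 0 higher (median -0.48). Of 38 with such an overlap 14 (36.8%) were lower and 1 higher (median -0.46). MRPL3, MRPS10 and MRPS35 are among those without an overlap. The rows that overlap MRPL12, MRPL47 and MRPL28 were lower as well, with log2 changes of -1.39 for AC139530.2, -0.89 for ACTL6A and -0.81 for TMEM8A. AC139530.2 covers 99.7% of the span of MRPL12 on the same strand, so the fall of MRPL12 cannot be told apart from that row's, whereas ACTL6A covers 0.76% of MRPL47. The rows beside MRPL14, MRPL9 and MRPS16, which are TMEM63B, OAZ3 and DNAJC9, had log2 changes of -0.43, -0.27 and 0.08. NCAPD2, with a mean of 391 CPM against 68.2 CPM for MRPL51, covers 24.8% of the span of MRPL51 and changed by -0.76. AC087289.3 covers 99.97% of MRPL38 on the same strand and changed by -0.38. GCFC2 covers 88.2% of MRPL19 on the opposite strand and changed by -0.55.

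Against isotonic alone, 23 of 78 members were lower in rescue and 1 higher, beside 13.5% and 9.61% of all genes. Against hypertonic alone, 22 were lower and 1 higher, beside 13.8% and 9.86%. These comparisons share the rescue libraries with each other and with the comparison above. MRPL12 changed by -1.25 and -1.30, MRPL47 by -1.22 and -1.21 and MRPL28 by -1.02 and -1.05 on the log2 scale, and MRPS28 by 0.55 and 0.57. MRPL3 passed against isotonic (edgeR adjusted p = 0.0499) and missed against hypertonic (edgeR adjusted p = 0.0556). Leaving out either rescue library, or either library of the group it was set against, left 0 members called in both comparisons, and leaving out isotonic 1 or isotonic 2 left 14 lower against hypertonic.

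The mitoribosome proteins under other symbols moved the same way. Against the mean of the other groups 5 of 6 (83.3%) were lower in rescue and 0 higher (median -0.77). Of all genes 17.0% were lower and 14.6% higher. PTCD3, a pentatricopeptide repeat protein of the small subunit, stood at 85.2, 80.2, 80.6 and 84.7 CPM and at 55.3 and 57.8 CPM in rescue. Its rescue libraries were clearly lowest and its other 4 were close together. DAP3, a GTP-binding protein of the small subunit, stood at 93.3, 67.5, 65.5 and 91.5 CPM and at 56.6 and 57.4 CPM, with the split seen in most members. AURKAIP1, CHCHD1 and GADD45GIP1 were lower by -0.77, -0.63 and -0.80. OXA1L, the insertase that receives the new peptides, had a change of -0.63 and was not called (edgeR adjusted p = 0.078).

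Factors that build the mitoribosome or act with it were read next. Of 28 assembly and rRNA modification genes 5 (17.9%) were lower and 0 higher, a share near the 17.0% of all genes, with a median of 0.02: the pseudouridine synthases RPUSD4 (-1.46) and RPUSD3 (-0.90), GRSF1 (-0.86), RCC1L (-0.85) and NGRN (-0.41). Of 16 translation factors and mRNA-binding proteins 6 (37.5%) were lower and 1 higher (6.25%, beside 14.6% of all genes), with a median of -0.26. LRPPRC and SLIRP, which form a complex on mitochondrial mRNAs, changed by -0.88 and -0.61, and TUFM, the mitochondrial elongation factor Tu, by -0.53. MTIF3, an initiation factor, was higher, at 13.0, 7.0, 7.14 and 12.6 CPM in the isotonic and hypertonic libraries and 32.9 and 31.4 CPM in rescue. Among 15 genes of mitochondrial transcription and its nuclear regulators 5 were lower (33.3%) and 1 higher (6.67%). MYC, a transcription factor that drives growth genes, stood at 125, 177, 164 and 120.7 CPM and at 48.3 and 45.3 CPM in rescue (-1.96), and the coactivator PPRC1 at 80.3, 133, 136 and 78.8 CPM and at 45.8 and 45.5 CPM (-1.55). TFAM, POLRMT and PPARGC1B were also lower, at -0.87, -0.63 and -0.85. PPARGC1A was higher, but from 1.35 to 1.86 CPM in the other 4 libraries to 7.10 and 6.95 CPM in rescue. NRF1 and GABPA, with -0.42 and 0.24, and YY1, with -0.85, were not called (edgeR adjusted p = 0.121, 0.234 and 0.135).

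The products translated by this ribosome and its cytosolic counterpart were read beside it. Of 13 mitochondrially encoded mRNAs 3 (23.1%) were lower in rescue, MT-ND1, MT-CO3 and MT-CYB, and 0 higher, beside 17.0% and 14.6% of all genes. The summed level of the 13 was 47105, 40593, 40589 and 48156 CPM in isotonic 1, isotonic 2, hypertonic 1 and hypertonic 2. In rescue it was 50809 and 49155 CPM. This sum was highest in rescue by library total, whereas with TMM scaling it was lowest there, so its direction depends on the scaling. Of 89 nuclear oxidative phosphorylation genes 23 were lower (25.8%) and 2 higher (2.25%), with a median of -0.32. Of 83 cytosolic ribosomal protein genes 1 was lower and 0 higher (median -0.11). By library total both rescue libraries were above the other 4 in 61 of them (46.9% of all genes) and below in 1 (21.8%). With TMM scaling they were above in 2 (34.7% of all genes) and below in 32 (33.6%). The difference between the members and these lists was not tested.

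Members often stand head to head with another gene. Of the 78, 17 (21.8%) had the start of a coding gene on the opposite strand within 1 kb upstream, against 7.39% of 19874 coding genes. Pairs whose spans overlap at their starts were not counted. MRPL46 and MRPS11 share such a pair, with starts 34 bases apart on chromosome 15. MRPS11 stood at 40.8, 24.6, 24.7 and 40.3 CPM in isotonic 1, isotonic 2, hypertonic 1 and hypertonic 2 and at 29.2 and 27.8 CPM in rescue, where MRPL46 stood at 23.0 and 23.3 CPM. Both spans overlap 1 coding row, AC013489.1, which covers 99.7% of MRPL46 on its strand and all of MRPS11 on the opposite strand. That row stood at 88.1, 43.4, 43.9 and 85.0 CPM and at 100.7 and 101 CPM in rescue, and reads it shares with either gene cannot be told apart. The 2 genes were split in the same direction among the first 4 libraries, whereas their changes in rescue were -0.48 and 0.29, neither of them called. MRPL47 and NDUFB5, a subunit of complex I, start 36 bases apart and changed by -1.22 and -0.37. MRPL18 and TCP1, a subunit of the cytosolic chaperonin, start 63 bases apart and changed by -0.48 and -1.06.

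The motif shown at the start of MRPS10 and MRPS27 was set against position in rescue. By library total, AAGATGGC lay after the start in 10 of 31 members whose rescue libraries were below the other 4. It did so in 5 of 31 that overlapped and in 0 of 7 that were above. Split by the test instead, it lay there in 8 of 28 members called lower (28.6%) and in 7 of 41 other members (17.1%). Of all genes with a window 2.55% had it there, and these were not split by position. The counts are small and the members' positions follow the scaling, so they are given as a description.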

How the data were processed

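The authors deposited 1 table of whole-number read counts per gene for each of the 6 libraries. The submitters' processing notes name bcl2fastq, TopHat2, Bowtie2, bedtools and the build GRCh38 (hg38), while the annotation, the handling of strand and the assignment of reads over shared bases are not stated in the labels or notes. A row can hold reads of an overlapping gene, and the overlapping row is given for some of the named members only. CPM was computed from library totals. All genes were fitted in edgeR 4.0.16 (R 4.3.3; filterByExpr, TMM, robust quasi-likelihood test, 1 mean per group, 3 residual degrees of freedom, two-sided), with Benjamini-Hochberg adjustment over 18208 genes and a threshold of 0.05; SEs are the log2 change divided by the root of F. The common dispersion gave a biological coefficient of variation of 38.4%. Ratios within a number are log2 of CPM plus 0.1. Alternatives were other scalings, no filter, DESeq2 1.42.0, limma voom (limma 3.58.1), the number as a block, and libraries left out. Overlaps, starts and lengths come from GENCODE 29 and promoter windows from RefSeq; 9 members without a window are MRPL35, MRPS36, MRPL2, MRPL15, MRPS28, MRPL13, MRPL23, MRPL21 and MRPL10. Named were the 8 largest called falls and rises in rescue that averaged 5 CPM or more and were clear of the other 4 libraries, the 6 highest and 6 lowest members by mean CPM, the 4 highest and 4 lowest number 1 ratios, up to 4 called genes of each list, and MRPS6, MRPS18A, MRPS18B, MRPS18C, MRPL12, MRPS12 and MRPL58 with related genes; other genes were named after their values were seen. The members and lists were chosen with earlier results of these data known.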

Additional observations from a re-analysis of the deposited data

Results flagged for a closer look

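In 5 members every hypertonic to isotonic ratio of number 1 pointed opposite to that of number 2, and both were at least 2-fold. The difference was not tested. Opposite signs were common, in 76 of 78 members and in 16682 of 18208 genes tested. In number 1, 12.6% of all genes were at least 2-fold lower in hypertonic and 10.0% at least 2-fold higher. The share of all genes that met both conditions was not counted. The log2 ratios in number 1 and number 2 were -1.17 and 1.15 for MRPS17, -1.02 and 1.01 for MRPL15, -1.29 and 1.41 for MRPS31, -1.50 and 1.40 for MRPL46, and 1.90 and -1.89 for MRPS6. MRPS6 is the only one of the 5 that was higher in hypertonic 1. Its span overlaps SLC5A3, whose counts equalled 83.4% to 92.7% of those in the MRPS6 row.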

How the results depend on the processing

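No member count moved by over 1.5 times with DESeq2's size factors in edgeR or with limma voom. Lower members in rescue against isotonic, hypertonic and their mean numbered 9, 9 and 16 with upper quartile scaling, 3, 3 and 7 by library totals, and 37, 37 and 41 with DESeq2, which called 2 higher against the mean. Without a filter 0 were higher against isotonic. With the replicate number as a block 0 were called in either direction against isotonic or hypertonic, and 2 were lower and 0 higher against the mean. The numbers do not pair the libraries: deviations of same-numbered libraries correlated at -0.95 (isotonic and hypertonic), -0.03 (isotonic and rescue) and 0.04 (hypertonic and rescue) across genes. A block on crossed pairs, chosen after seeing the data, gave 27, 26 and 35 lower. Leaving out 1 library gave 0 to 17 lower and 0 higher against isotonic, 0 to 14 lower and 0 higher against hypertonic, and 0 to 23 lower and 0 to 1 higher against the mean; a group left with 1 library is assumed to vary like the others. The 2-fold lower members in number 1 numbered 3 with TMM scaling and 3 with a pseudocount of 1 CPM. Subtracting SLC5A3 moved the MRPS6 ratio in number 1 to 0.72. The cause of these shifts was not tested, except that leaving libraries out leaves fewer samples.

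With isotonic 2 and hypertonic 2 left out, so that the spread comes from the rescue libraries alone, 43 members were lower and 2 higher in hypertonic against isotonic, and 66, 44 and 60 were lower and 4, 17 and 10 higher in rescue against isotonic, hypertonic and their mean. With isotonic 1 and hypertonic 1 left out, 2 were lower and 47 higher in hypertonic, and 43, 67 and 59 lower and 17, 3 and 9 higher in rescue. These fits turned the sign of some log2 changes. In the first, hypertonic against isotonic gave -0.32 for MRPL9, 2.06 for MRPS6, -0.28 for MRPS25, -0.56 for MRPL55, -0.46 for MRPS33, -0.32 for MRPL23, -1.14 for MRPS31, -0.87 for MRPL15 and -0.41 for MRPS18B. Rescue against isotonic gave 0.59 for MRPS6, -0.27 for MRPL55, -0.26 for MRPL46 and -0.27 for MRPS18A, and against hypertonic 0.26 for MRPL33, 0.29 for MRPL55, 0.40 for MRPS17 and 0.21 for MRPS18C. In the second, hypertonic against isotonic gave 0.46 for MRPL3, 0.34 for MRPS10, 0.31 for MRPS35, 0.73 for MRPL33, 0.23 for MRPL19, 0.63 for MRPL57, 0.40 for MRPS26, -0.40 for MRPS24, 1.27 for MRPL46, 1.01 for MRPS17, 0.64 for MRPS18A, 0.39 for MRPS18C and 0.66 for MRPL58. Rescue against isotonic gave 0.25 for MRPL33 and 0.50 for MRPS17, and against hypertonic 0.52 for MRPS6, -0.19 for MRPL46 and -0.20 for MRPS18A.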
